A study of Mus musculus with 10 samples.

Results

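The genes described are 10 that write, help to write or remove methylation of lysine 4 on histone H3: the methyltransferase genes Kmt2a, Kmt2b, Kmt2c, Kmt2d, Setd1a and Setd1b, the core subunit genes Wdr5 and Ash2l, and the demethylase genes Kdm5a and Kdm5b. They were taken by name from the GENCODE M21 annotation of mm10, and all 10 were found among its 21938 protein-coding genes outside the mitochondrial genome. For each of them, the H3K4me3 and ATAC-seq peaks within 2 Kb of the annotated gene start and in the rest of the gene were listed. All 10 starts lay under an H3K4me3 peak, where 54.5% of the transcript starts of protein-coding genes did. The median width of the peaks at the 10 starts was 3856 bp. Over the protein-coding genes with a peak within 2 Kb of the start it was 2165 bp.

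H3K4 is methylated by SET domain enzymes that work inside COMPASS-type complexes, in which WDR5, ASH2L, RBBP5 and DPY30 form the shared core that the catalytic subunit needs for full activity. SETD1A and SETD1B are known for the bulk of promoter H3K4me3, KMT2A and KMT2B act at a more limited set of promoters, and KMT2C and KMT2D are known for monomethylation at enhancers. KDM5A and KDM5B are JmjC domain demethylases that take the methyl groups off again. In embryonic stem cells H3K4me3 marks most active and many developmentally poised promoters, and ATAC-seq reports open chromatin as the places where the Tn5 transposase can insert.

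Both assays were made on F123, an F1 hybrid mouse embryonic stem cell (mESC) line (Mus musculus castaneus x S129/SvJae), without any treatment or genetic change to compare. The culture used serum replacement medium with LIF and a feeder layer of irradiated CF1 fibroblasts, which was left out for the final passage. ChIP-seq with an antibody to H3K4me3 used 2000000 fixed cells per sample, and ATAC-seq used fresh cells, each in 2 replicates. One peak list stands for both replicates of an assay, so no value below has a spread between replicates, no test was possible, and the order of genes with close widths cannot be judged. The lists do not separate the parental alleles.

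The H3K4me3 list held 33487 peaks of 206 to 14281 bp (median 1135 bp), and the ATAC-seq list held 179109 peaks of 73 to 4612 bp (median 261 bp). The first list also gives a fold enrichment for each peak, the signal at its summit relative to the background that the peak caller estimated (median 8.93). The cell type was checked with marker genes. Of 8 genes known for pluripotent cells, 7 had an H3K4me3 peak at the start, with a median width of 5242 bp, and all 8 had an ATAC-seq peak. The exception, Esrrb, had H3K4me3 at 5 of its 6 transcript starts. Of 8 fibroblast genes, 6 had an H3K4me3 peak, with a median width of 2508.5 bp, and 7 had an ATAC-seq peak. The collagen gene Col3a1 and the matrix gene Postn had no H3K4me3 peak, and that of Dcn spanned 271 bp at a fold enrichment of 3.39. The other 5, Col1a1, Col1a2, Thy1, Twist1 and Twist2, had peaks of 2018 to 3322 bp with fold enrichments of 13.9 to 28.2, and Col1a2 had 4 ATAC-seq peaks at its start. The share of fibroblast genes with an H3K4me3 peak was thus not below that of all protein-coding genes (66.4%). The part of feeder cells in the peaks of the 10 genes was not tested.

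All 10 genes had exactly 1 H3K4me3 peak within 2 Kb of the start, against 66.4% of protein-coding genes with at least 1. All 10 also had an ATAC-seq peak there, 19 peaks in all, against 74.6% of protein-coding genes. Every one of these H3K4me3 peaks covered the start itself. Of the transcript starts of protein-coding genes 54.5% were covered, and the share of gene starts was not counted. The nearest H3K4me3 peak left out by the 2 Kb limit was 2750 bp upstream of Kdm5b. Among the ATAC-seq peaks, the farthest one kept was 1227 bp from the start of Kmt2a, and the nearest one left out was 2356 bp from that of Setd1a. The map of peaks around the 10 starts shows both assays for each gene.

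**Figure D1:**
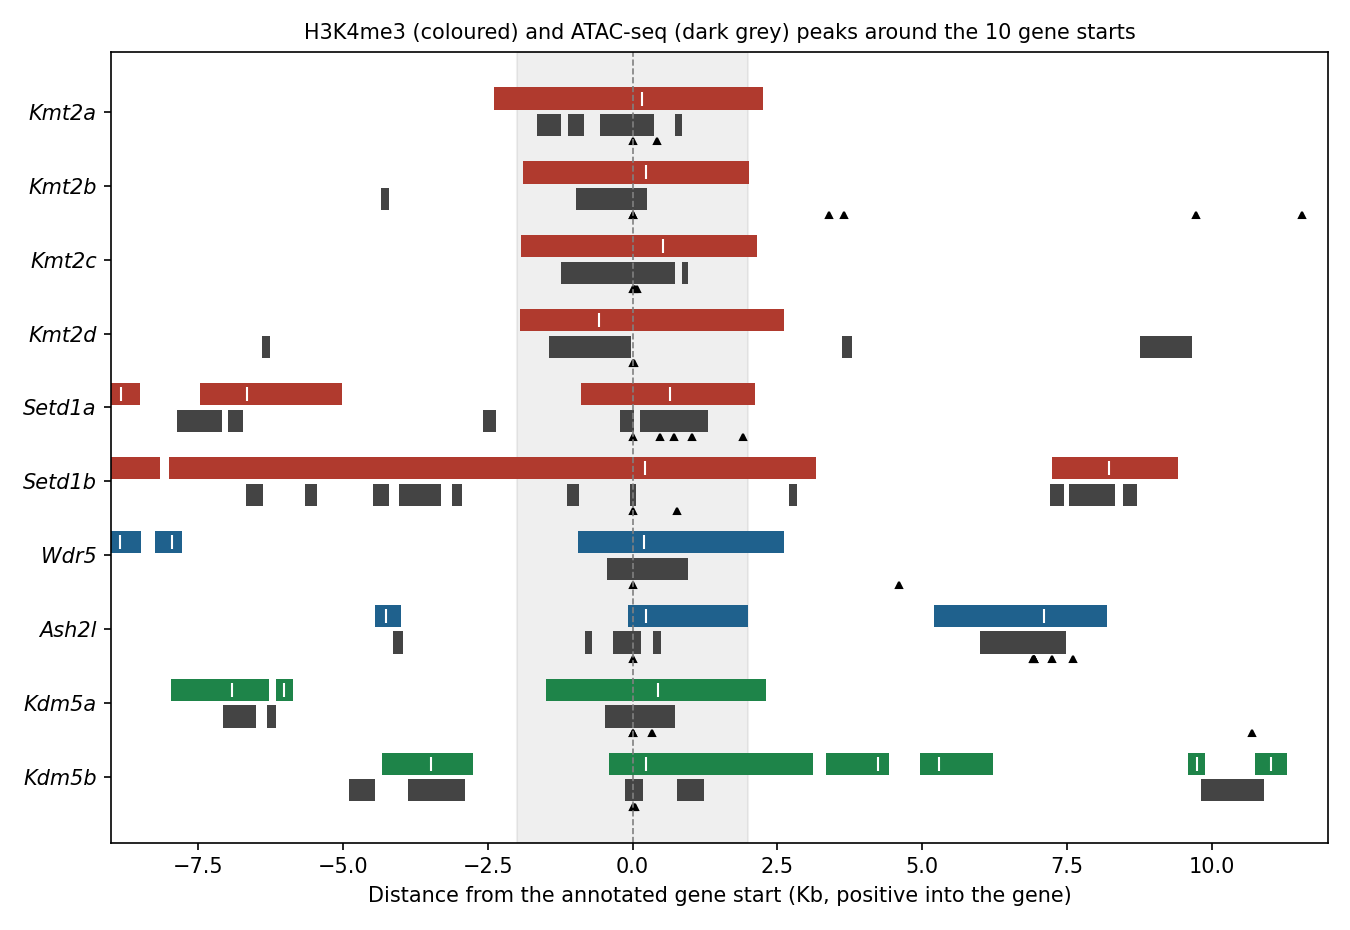
H3K4me3 peaks (coloured by role: red for methyltransferases, blue for core subunits, green for demethylases), ATAC-seq peaks (dark grey) and annotated transcript starts (triangles) against the distance from the gene start in Kb; white ticks are H3K4me3 summits and the shaded band is the 2 Kb window. Each start is covered by H3K4me3; the peak of Setd1b reaches 8000 bp upstream, and that of Ash2l only 86 bp.

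The promoters differed in their content of CpG dinucleotides, the sites at which CpG islands are recognised by CXXC domains such as those of KMT2A and KMT2B. The RefSeq promoter table (GRCm38.p6, 250 bases before to 50 after each start) held 6 of the 10 genes: Kmt2a, Kmt2c, Kmt2d, Setd1a, Wdr5 and Kdm5b. It has no entry for Kmt2b, Setd1b, Ash2l and Kdm5a. The 250 bases before the start are printed for the genes with the most (Kmt2c) and the fewest (Kdm5b) CpG dinucleotides in the 300 bases, for Kmt2a, which has the widest promoter peak among the 6, and for Kmt2d, where open chromatin lay beside the start. The RefSeq starts used lie within 10 bp of the GENCODE starts, except for Setd1a (719 bp). Capitals mark each CpG, and the sequences read 5′ to 3′ on the strand of the gene. They lie at chr5:25498784-25499033 (minus strand) for Kmt2c, chr9:44881290-44881539 (minus strand) for Kmt2a, chr15:98871206-98871455 (minus strand) for Kmt2d, and chr1:134559928-134560177 (plus strand) for Kdm5b.
Kmt2c: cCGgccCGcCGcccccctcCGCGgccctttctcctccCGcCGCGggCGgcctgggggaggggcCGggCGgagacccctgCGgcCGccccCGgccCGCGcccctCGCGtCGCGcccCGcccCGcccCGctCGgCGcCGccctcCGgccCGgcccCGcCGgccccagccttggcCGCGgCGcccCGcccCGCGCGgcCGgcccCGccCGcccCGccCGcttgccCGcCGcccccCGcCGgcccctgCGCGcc
Kmt2a: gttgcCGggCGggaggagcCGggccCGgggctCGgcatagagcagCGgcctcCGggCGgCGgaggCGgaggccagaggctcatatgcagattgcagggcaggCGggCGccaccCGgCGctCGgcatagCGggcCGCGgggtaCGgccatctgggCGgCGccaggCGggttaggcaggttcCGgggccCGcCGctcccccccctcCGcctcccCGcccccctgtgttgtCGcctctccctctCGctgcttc
Kmt2d: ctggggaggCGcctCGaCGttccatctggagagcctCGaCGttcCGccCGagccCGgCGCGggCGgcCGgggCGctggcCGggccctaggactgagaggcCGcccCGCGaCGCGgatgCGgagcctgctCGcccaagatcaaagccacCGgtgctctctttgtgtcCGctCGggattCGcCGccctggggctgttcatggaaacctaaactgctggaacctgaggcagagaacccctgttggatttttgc
Kdm5b: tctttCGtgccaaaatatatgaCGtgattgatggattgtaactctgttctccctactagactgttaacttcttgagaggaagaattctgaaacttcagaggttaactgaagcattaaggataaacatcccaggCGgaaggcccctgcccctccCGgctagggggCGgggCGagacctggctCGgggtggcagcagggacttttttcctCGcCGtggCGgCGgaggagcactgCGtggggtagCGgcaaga

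Kmt2c held 56 CpG dinucleotides in its 300 bases, more than 99.8% of the 32851 promoters in the table, and its printed stretch was 91.6% G or C. The 300 bases of Kmt2a held 36, of Setd1a 35, of Kmt2d 27, of Wdr5 22 and of Kdm5b 17. The median over the table was 7, with a middle 50% from 3 to 20, so Kdm5b alone of the 6 fell within that range. The GC box GGGCGG, searched on both strands, was found in 5 of the 6 promoters (not in that of Setd1a) and in 35.7% of all promoters in the table. None of the 6 held the E-box CACGTG (7.15% of all), the ETS core CCGGAAG (8.86%), CCAAT (37.4%) or the CRE TGACGTCA (1.79%). None of the searched motifs contains another, and a match describes letters, not a bound factor.

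Among the methyltransferase genes, Setd1b stood apart. Its promoter peak, at chr5:123134193-123145369, was 11177 bp wide, the second widest of the whole list. It had a fold enrichment of 42.1. The peak reached 8000 bp upstream and 3176 bp downstream, so that 28.4% of it lay downstream of the start, while its summit was 220 bp into the gene. It also covered the starts of 2 lincRNA genes, AI480526, on the other strand at 527 bp upstream, and 4932422M17Rik, at 3262 bp upstream. The extent that belongs to each start cannot be told apart, and the upstream reach cannot be assigned to Setd1b alone. Open chromatin under this peak was divided into 8 ATAC-seq peaks that made up 19.0% of its length. The ATAC-seq peak over the start of Setd1b was 111 bp wide, and the widest within 2 Kb was 203 bp.

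Setd1a, the paralogue of Setd1b, had the narrowest promoter peak of the 6 methyltransferase genes. It lay at chr7:127775786-127778781 and was 2996 bp wide (rank 3167 by width, counted from the widest), with a fold enrichment of 42.3. Thus the paralogues had almost the same fold enrichment and peaks of very unequal width, but the width at Setd1b cannot be assigned to it alone. Downstream of the start, the peak of Setd1b reached 3176 bp. The peak of Setd1a reached 884 bp upstream and 2111 bp downstream. Its ATAC-seq signal came as a peak of 235 bp over the start and one of 1183 bp that began 125 bp into the gene, where 4 of its 6 transcripts start.

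Kmt2a and Kmt2b, the genes of MLL1 and MLL2, had broad peaks with strong enrichment. That of Kmt2a, at chr9:44879051-44883684, spanned 4634 bp (rank 586), with a fold enrichment of 50.9. That of Kmt2b, at chr7:30586707-30590615, spanned 3909 bp (rank 1237), at a fold enrichment of 59.3, the highest of the 10 genes and above that of 99.2% of the peaks of the list. Both were nearly balanced around the start, with 2388 bp upstream and 2245 bp downstream for Kmt2a and 1889 bp upstream and 2019 bp downstream for Kmt2b. Open chromatin was split into 4 ATAC-seq peaks at Kmt2a and formed a single peak of 1225 bp at Kmt2b. The start of the microRNA gene Mir3569 lay within the Kmt2b peak.

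Kmt2c and Kmt2d, the genes of MLL3 and MLL4, had peaks of 4078 bp (chr5:25496637-25500714, rank 1014, fold enrichment 40.8) and 4575 bp (chr15:98868582-98873156, rank 617, fold enrichment 45.4). Kmt2c had the widest ATAC-seq peak of the 10 starts, 1964 bp, which was rank 196 in that list. ATAC-seq peaks covered 51.0% of its H3K4me3 peak, and the H3K4me3 peak held 80.7 CpG per Kb, the highest value of the 10. At Kmt2d the summit of H3K4me3 lay 584 bp upstream of the start, whereas the other 9 summits were downstream. Its ATAC-seq peak of 1409 bp ended 29 bp upstream of the start, while in the other 9 genes an ATAC-seq peak covered it. The H3K4me3 peak of Kmt2d also covered the starts of the lincRNA gene 5730414N17Rik and of Gm49437, both upstream, and that of Kmt2c covered the start of the lincRNA gene 4831440E17Rik.

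The core subunit genes had narrower peaks than most of the methyltransferase genes. Wdr5, whose WD40 propeller protein holds the complexes together, had a peak of 3562 bp at chr2:27514216-27517777 (rank 1746, fold enrichment 35.6). It lay mostly in the gene, with 941 bp upstream and 2620 bp downstream, and a single ATAC-seq peak of 1402 bp covered the start. Ash2l, whose protein pairs with RBBP5 to stimulate the catalytic subunit, had the narrowest and weakest peak of the 10 at its annotated start: 2082 bp at chr8:25845699-25847780 (rank 8135), with a fold enrichment of 18.8. Of that peak, 95.9% lay downstream of the start.

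For Ash2l the annotated gene start was not where most of its transcripts begin. A single transcript starts there, and 6 of the 11 transcripts start within another H3K4me3 peak, at chr8:25839498-25842485 inside the gene record. That peak was 2988 bp wide (rank 3195), with a fold enrichment of 47.9, above that of 95.6% of the list. Its summit lay 196 bp downstream of the transcript start at position 25840787, which is 6907 bp into the gene record. An ATAC-seq peak of 1475 bp lay over that start, against 481 bp for the widest one at the annotated start. Measured at the inner start, Ash2l was thus close in width to Setd1a.

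The demethylase genes had similar widths and unequal symmetry. Kdm5a had a peak of 3803 bp at chr6:120362630-120366432 (rank 1368), with a fold enrichment of 58.2, above that of 99.0% of the list. It reached 1494 bp upstream and 2308 bp downstream, carried 1 ATAC-seq peak of 1207 bp, and also covered the start of the protein-coding gene Ccdc77, which runs on the other strand. The Kdm5b peak, at chr1:134559767-134563281, spanned 3515 bp (rank 1826), at a fold enrichment of 46.7. It reached 404 bp upstream and 3110 bp downstream, so that 88.5% of it lay in the gene. The ATAC-seq peaks at Kdm5b were short, 325 bp over the start and 466 bp from 768 bp into the gene.

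Downstream of the start, the promoter peaks of all 10 genes reached farther than the middle 50% of protein-coding genes. Upstream, 6 did so, Setd1a, Wdr5 and Kdm5b were within that range, and Ash2l was below it. Of those 6, all but Kmt2a had a peak that also covered the start of another gene. The reach and width of these peaks cannot be assigned to Kmt2b, Kmt2c, Kmt2d, Setd1b and Kdm5a alone. At Kmt2a the start of AC061963.1 lay outside the peak but within 2 Kb of it. How many promoter peaks of all protein-coding genes cover another gene start was not counted. The median reach of the 10 was 1691.5 bp upstream and 2276.5 bp downstream. Over the 14576 protein-coding genes with a peak at the start it was 679 bp and 1402 bp. The median width was 4326.5 bp for the 6 methyltransferase genes, 2822 bp for the 2 core subunit genes and 3659 bp for the 2 demethylase genes, and the middle 50% of protein-coding genes ran from 1587 to 2876 bp. The widest 10% of the list, a limit chosen after the widths were seen, holds peaks of 2947 bp or more. It took in 9 of the 10 genes and 23.3% of protein-coding genes with a peak at the start. Setd1a, at 2996 bp, was just inside this limit, and Ash2l, at 2082 bp, was the one outside it. The 10 genes were compared with all protein-coding genes as a description, with no test.

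**Figure D2:**
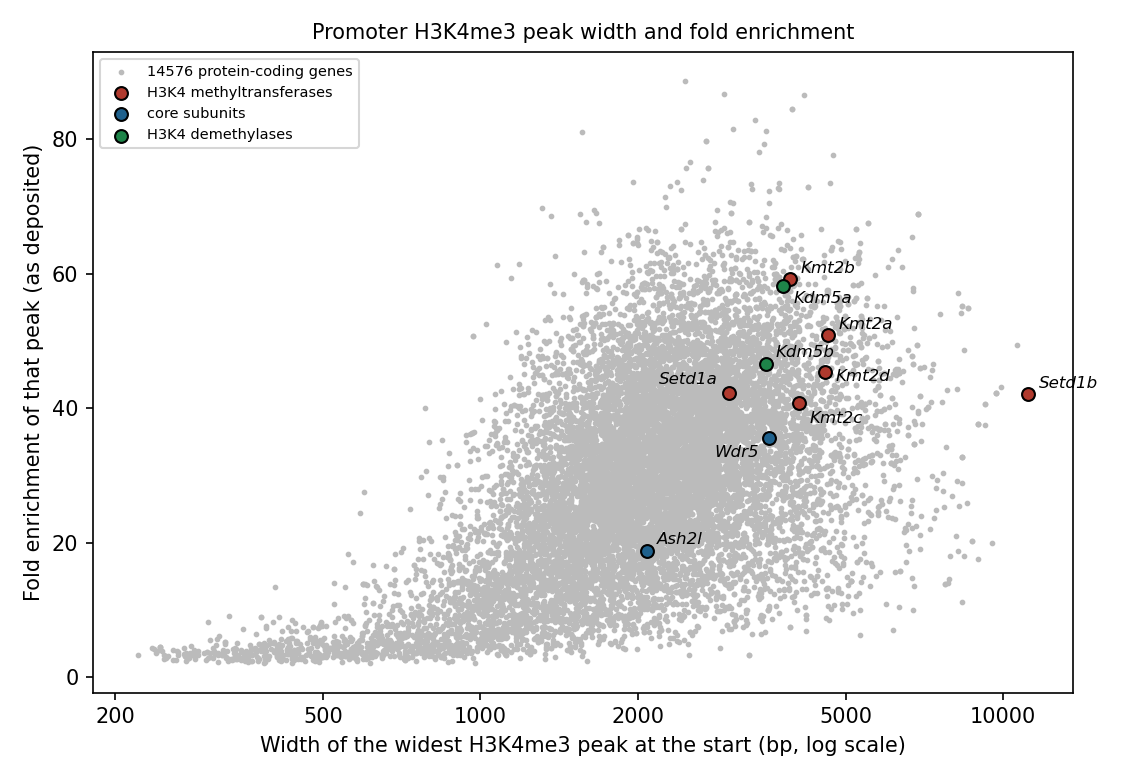
Fold enrichment, as deposited, against the width in bp (log scale) of the widest H3K4me3 peak within 2 Kb of the start, for 14576 protein-coding genes (grey points) and the 10 genes (coloured by role). Setd1b is farthest to the right at 11177 bp and 42.1, Ash2l is lowest at 18.8, and the other 8 lie between 2996 and 4634 bp.

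The fold enrichment of the promoter peaks was also above the middle 50% in 8 of the 10 genes, and below it at Ash2l. The median fold enrichment of the 10 was 43.8, against 30.5 over protein-coding genes, with a middle 50% from 20.0 to 40.0. Position and CpG content of the peaks were nearer to the rest. The summit lay at a median of 224.5 bp downstream of the start, against 218 bp. CpG density had a median of 45.3 per Kb, from 20.2 at Ash2l to 80.7 at Kmt2c, against 42.3 per Kb. ATAC-seq peaks covered a median of 31.5% of the H3K4me3 peak, against 45.4% with a middle 50% from 35.3% to 57.8%, and 6 of the 10 were below that range, with the lowest shares at Ash2l (17.3%) and Setd1b. Width enters both of these last measures as their denominator.

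Annotated transcripts gave a second view of the starts. The 10 genes have 69 transcripts with 62 distinct start positions. Of the 69 transcript starts, 41 had an H3K4me3 peak within 2 Kb, 38 were covered by one, and 45 had an ATAC-seq peak within 2 Kb. Over the 101639 transcript starts of protein-coding genes these shares were 60.7%, 54.5% and 71.4%, so the counts were near the background. All 6 transcript starts of Setd1a had H3K4me3, as did 7 of 11 for Ash2l, 4 of 8 for Kmt2b and for Kmt2c, 2 of 5 for Kmt2d and 3 of 6 for Kdm5b.

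Within the genes, beyond the 2 Kb around the start, 5 of the 10 had an H3K4me3 peak, 9 peaks in all, against 29.2% of protein-coding genes longer than 2 Kb and 40.3% of those at least as long as Kmt2b, the shortest of the 10 at 19869 bp. ATAC-seq peaks were found in 7 of the 10, against 66.4% and 90.6%. Read against genes at least as long, the H3K4me3 count was near the background, and the ATAC-seq count was lower. That set has no upper limit of length, so it is not matched to the 10 genes for length. Kmt2b, Setd1a and Wdr5, the 3 shortest genes, had no peak of either assay in the body.

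**Figure D3:**
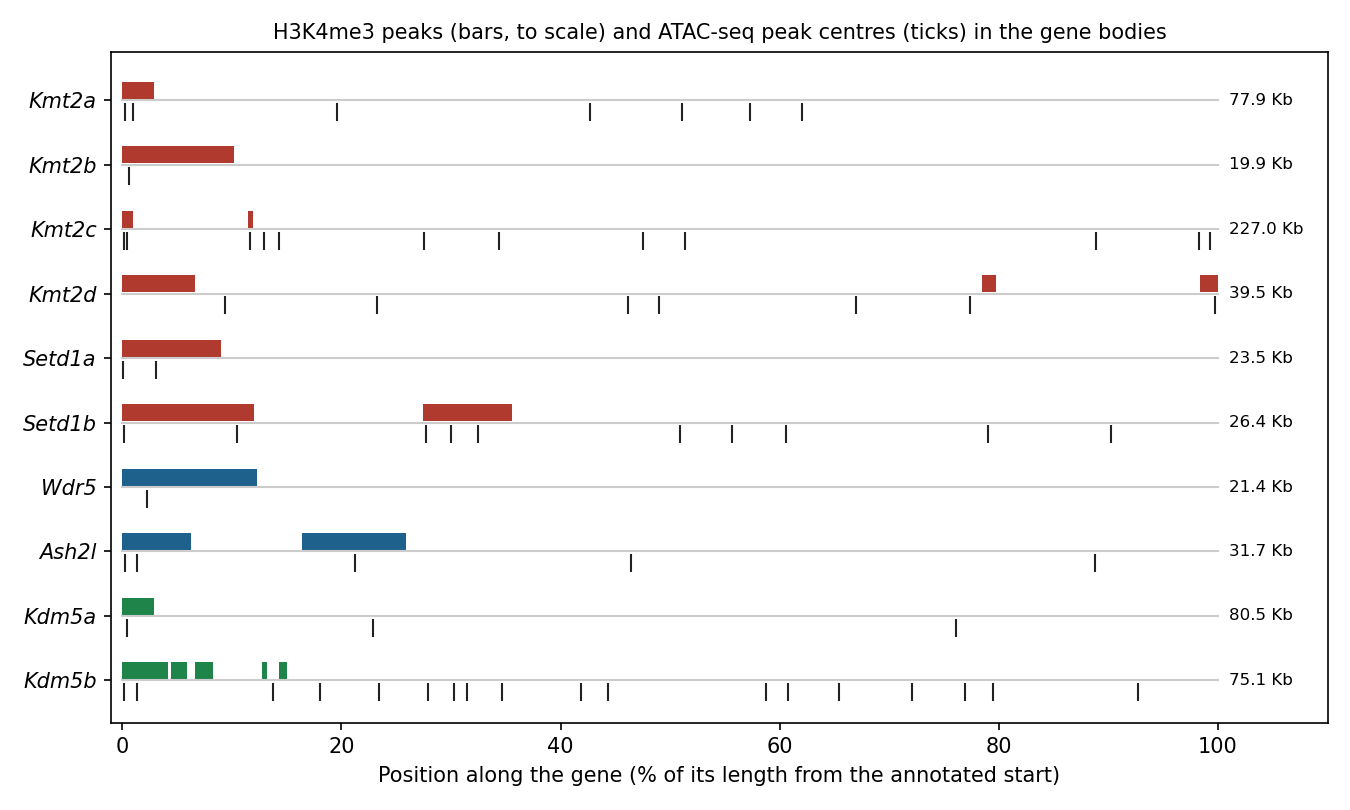
H3K4me3 peaks (bars, cut at the gene ends) and centres of ATAC-seq peaks (ticks) along each of the 10 genes, in % of the gene length from the annotated start; the length in Kb stands at the right. Peaks of the start window are included; Kdm5b has the most body peaks of both assays, and Kmt2b, Setd1a and Wdr5 have none.

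Kdm5b had 4 H3K4me3 peaks in its body, all intronic and all within 11307 bp of the start. They were 1089, 1268, 296 and 562 bp wide, with fold enrichments of 3.74, 4.28, 3.48 and 5.27, against 46.7 at the promoter. A single ATAC-seq peak of 1103 bp touched the last 2 of them, and the first 2 had none. Setd1b had a weak peak of 2166 bp from 7245 to 9410 bp into the gene (fold enrichment 5.67), over 3 ATAC-seq peaks.

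In Kmt2c the body peak was intronic, 1179 bp wide and 25997 bp into the gene, with a fold enrichment of 14.9 and an ATAC-seq peak of 288 bp inside it. Kmt2d had a stronger body peak, of 2075 bp and fold enrichment 32.5, at its 3′ end. This peak covered the start of Prkag1, the gene of a regulatory subunit of the kinase AMPK, and cannot be assigned to Kmt2d. The other Kmt2d peak was exonic and spanned 502 bp, at a fold enrichment of 3.29, with no ATAC-seq peak. The body peak of Ash2l was the one at its inner start.

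The 7 genes held 52 ATAC-seq peaks in their bodies, 16 of them in Kdm5b, 10 in Kmt2c, 9 in Setd1b, 7 in Kmt2d, 5 in Kmt2a, 3 in Ash2l and 2 in Kdm5a. Per 10 Kb of gene body this was 3.68 for Setd1b, 2.19 for Kdm5b and 1.86 for Kmt2d, above the middle 50% of protein-coding genes at least as long as Kmt2b, which ran from 0.382 to 1.31. The longest gene, Kmt2c, was within it at 0.444, Kdm5a was below it at 0.255, and Kmt2b, Setd1a and Wdr5 were at 0. The median of the 10 was 0.551, below the 0.751 of those genes. Of the 52 peaks, 23 touched an exon of any annotated transcript, 6 each in Kmt2d and Setd1b, and 29 did not. Of the ATAC-seq peaks in the bodies of protein-coding genes of any length, 21.3% touched one. The share of the gene bodies that is exon was not compared. An H3K4me3 peak overlapped 8 of the 52, against 16.6% of the peaks in all bodies, so this count was near the background. These 8 include the ATAC-seq peaks over the Prkag1 start in Kmt2d, at the inner start of Ash2l, and inside the promoter peak of Setd1b. Such peaks also count in the values per 10 Kb.

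A wider list of 34 genes assigned to H3K4 methylation was read in the same way. It held 13 other subunits of COMPASS-type complexes, 6 other demethylase, 6 other methyltransferase and 9 reader genes. Kdm2a and Kdm2b were among its demethylases and Ash1l among its methyltransferases, and whether each gene acts on H3K4 was not examined. Of the 34 genes, 32 had an H3K4me3 peak at the start (66.4% of all protein-coding genes) and 33 an ATAC-seq peak (74.6%). A promoter peak in the widest 10% of the list was found for 14 of the 32 (23.3% of protein-coding genes with a peak). Their median width was 2916.5 bp. By group it was 2935 bp for the other COMPASS subunits (12 of 13 with a peak), 2598.5 bp for the other demethylases (6 of 6), 2248 bp for the other methyltransferases (5 of 6) and 3438 bp for the readers (9 of 9).

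**Figure D4:**
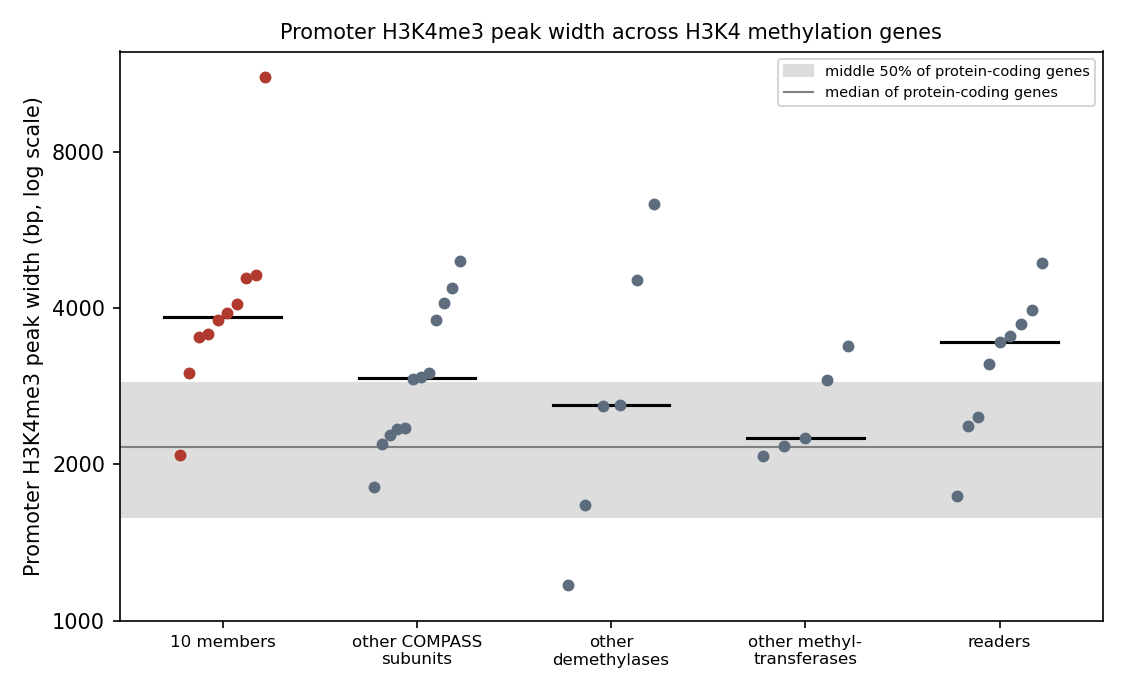
Width in bp (log scale) of the promoter H3K4me3 peak for the 10 genes (red) and 4 groups of other genes assigned to H3K4 methylation (grey). Points are sorted by width within each group. Short black lines are group medians, and the band and grey line are the middle 50% and the median of protein-coding genes. The median of the 10 is 3856 bp and those of the other groups run from 2248 to 3438 bp.

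The widest promoter peaks of the wider list were those of Kdm2b, a CXXC domain demethylase that recruits a Polycomb complex to CpG islands (6351 bp, rank 118), of Hcfc1, a subunit shared by several of the methyltransferase complexes (4931 bp, rank 440), and of the reader gene Ing5 (4888 bp, rank 460). None of them reached Setd1b. The narrowest were those of Kdm5d (1172 bp), of the H3K4 demethylase gene Kdm1b (1673 bp) and of the reader gene Ing4 (1736 bp). Kdm5d, the Y-linked relative of Kdm5a and Kdm5b, was also the one gene with no ATAC-seq peak at the start. For Kdm1b the width is that of the wider of 2 H3K4me3 peaks at its start. No H3K4me3 peak lay at the annotated start of Dpy30, a core subunit gene, or of Smyd1, a methyltransferase gene of heart and skeletal muscle. They differed at their other starts, since 5 of the 6 transcript starts of Dpy30 and 0 of the 6 of Smyd1 had H3K4me3 within 2 Kb.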

How the data were processed

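H3K4me3 ChIP-seq and ATAC-seq of F123 mESCs were used, with 2 replicates per assay and groups taken from the sample labels. The PLAC-seq and input samples were not analysed here. The authors processed the ChIP-seq reads with the ENCODE histone pipeline at its defaults, and its aligner and thresholds are not given in the sources used here. They deposited 1 H3K4me3 list with positions, fold enrichment (a ratio to the local background), −log10 q and the summit. For ATAC-seq, the authors used Bowtie 1.1.2 and SAMtools, then MACS2 2.1.1.20160309, and bedtools 2.27.1 (per the labels), shifted reads for the Tn5 insertion, and deposited positions only of pooled peaks found in both replicates. Because only such peaks were kept, weak sites seen in 1 replicate are missing. The limit that the paper gives for these calls is one on the p-value. Without a signal value, weak and strong ATAC-seq peaks of the list cannot be told apart. Neither list holds read counts, so the depth is unknown and no interval or test is given.

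Positions were taken as mm10, which the labels name, and every peak on a main chromosome lay within GRCm38.p6. A gene start was the 5′ end of the GENCODE M21 gene record. A peak was at the start when it shared at least 1 bp with the window of 2 Kb on either side, and in the gene body when it touched the gene record but not that window. The promoter peak was the widest H3K4me3 peak at the start, and ranks run from the widest peak of the list. Percentages of protein-coding genes with a peak within 2 Kb of the start use all 21938 of them. The other percentages use the sets named beside them. The overlaps were tested on simulated data and against bedtools 2.31.1. Python 3.11.15, numpy 2.4.6, pandas 2.3.3 and matplotlib 3.10.9 were used. Every one of the 10 genes is named, and of the wider list those without an H3K4me3 peak and the 3 widest and 3 narrowest. The genes, lists and limits were chosen with earlier results of these data known. A result on a neighbour of Setd1b is not reported here. Alternatives were windows of 1 and 5 Kb, any transcript start, peak midpoints, −log10 q of at least 5, the widest 50% of ATAC-seq peaks, and summed or joined peaks.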

Additional observations from a re-analysis of the deposited data

How the results depend on the processing

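No paired analysis was possible because each assay has 1 list for both replicates, and for the same reason no replicate could be left out. With windows of 1 or 5 Kb, with any transcript start or with a −log10 q of at least 5, all 10 genes kept an H3K4me3 peak at the start. With the midpoint required in the window the count was 9, without Setd1b. The ATAC-seq count was 9 with the widest 50% of peaks and 10 otherwise.

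The median width was 3993.5 bp with peaks up to 500 bp apart joined (2247 bp over protein-coding genes) and 3856 bp under the other 5 alternatives. Joining widened Setd1b to 13668 bp (rank 5 of 29909), by adding a separate upstream peak that cannot be assigned to Setd1b, and Kdm5b to 4825 bp, and any transcript start gave 2988 bp for Ash2l. The other widths did not change. The genes with an H3K4me3 peak in the body were 4 in place of 5 when every transcript start was left out, since the Ash2l peak then dropped out. With the starts of all annotated genes left out, an alternative chosen after seeing the data, 5 remained. The ATAC-seq peaks in gene bodies numbered 23 with the widest 50% of peaks and 44 outside 2 Kb of every transcript start (also chosen later), in place of 52, and the 7 genes with such peaks were the same. These values show which peaks passed the thresholds of the authors, and depth, allele and replicate spread could not be examined.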

Other observations

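Further H3K4me3 peaks lay upstream of the start window at several of the genes. Which gene starts lie under them was not examined, so they cannot be assigned to the genes described. Kdm5b had one of 1571 bp, from 4320 to 2750 bp upstream, with a fold enrichment of 15.4 and an ATAC-seq peak of 989 bp within it. Setd1a had one of 2458 bp ending 5010 bp upstream, with a fold enrichment of 25.9, and Kmt2d one of 1837 bp ending 9013 bp upstream, with a fold enrichment of 18.1. Those nearest to Ash2l (450 bp, fold enrichment 3.84) and Kdm5a (297 bp, fold enrichment 4.10) were short and weak. The peak of Setd1b stood between 2 others at the top of the list: the widest, of 14281 bp at chr3:129212137-129226417, and the third, of 10792 bp at chr2:174290480-174301271, neither of which had a protein-coding gene start within 2 Kb.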
